A study of Mus musculus with 18 samples.

Results

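Testes of mice that received streptozotocin (STZ) together with alginate oligosaccharide (AOS) were compared with testes of mice that received STZ alone. The comparison holds the 6 libraries that the labels put in these groups, 3 each, of the 18 libraries in the series, and it covered all 20985 genes of the deposited table, of which 14164 were tested. RNA was sequenced from whole testis, and all mice belonged to the outbred ICR stock and were 10 weeks old. STZ is a glucose analogue that enters and kills insulin-secreting beta cells, and mice treated with it become diabetic. AOS is a mixture of short sugar chains made by cutting alginate, a polysaccharide of brown seaweed. The STZ group received STZ with no other agent named. The STZ + AOS group received STZ and AOS at 10 mg/kg. Of the other groups used here, the control group has no agent named, the AOS group received AOS at 10 mg/kg without STZ, and a further pair received STZ and a faecal microbiota transplant (FMT), labelled as AOS 10 mg/kg FMT or control FMT. The labels give no STZ dose, no timing and no route, and they leave unsaid if each library stands for a different animal or for a pool. The p-values therefore measure only the spread between these libraries.

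The seminiferous tubules of the testis hold germ cells in layers. Spermatogonia divide at the base, spermatocytes go through meiosis, and round spermatids elongate into sperm while protamines replace histones on their DNA. Sertoli cells nurse the germ cells and close the tubule with the blood-testis barrier. Outside the tubules lie myoid cells, vessels, macrophages and Leydig cells, which make testosterone. Because a library of whole testis pools all of these, fewer cells of a type and less RNA per cell cannot be told apart in any result below.

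The deposited values name no unit and were taken as FPKM, for the reason given under data processing. This scale divides fragments by the length of the transcript and the size of the library. Sums over all genes ranged from 561038 to 603475 in the 6 libraries. The number of reads is not known from the table, but the smallest steps between low values gave a relative depth of 0.9135 in STZ replicate 1 and of 0.9986 to 1.01 in the other 5. STZ replicate 1 stood apart within its group. On the first principal component, which carried 54.2% of the variance among the 18 libraries, it lay at 26.2, against 60.9 and 61.8 for STZ replicates 2 and 3 and −12.1 to −6.58 for the STZ + AOS libraries. Pearson correlations of log2 values between replicates were 0.9782 to 0.9903 in STZ and 0.9926 to 0.9943 in STZ + AOS. The share of genes reaching 1 FPKM was 66.72 ± 1.47% in STZ and 62.25 ± 0.397% in STZ + AOS (SD, n = 3 each). Where leaving out STZ replicate 1 ends the call of a gene described below, this is stated. Where it moves the larger of a list's counts of higher and lower members by over 1.5 times, the value without it is given. The smaller counts moved further in some lists, and this is not always stated.

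The STZ + AOS libraries held more transcript of late spermatid genes and less of somatic, immune and matrix genes than the STZ libraries. Prm2, which encodes a protamine, was at 8555, 4562 and 5827 FPKM in STZ and 11383, 9939 and 11079 FPKM in STZ + AOS. Clu, which encodes the secreted Sertoli cell glycoprotein clusterin, was at 1209, 1545 and 1474 FPKM and 560.1, 555 and 536 FPKM. Spp1, which encodes osteopontin, was at 48.6, 35.1 and 85.3 FPKM and 2.79, 1.48 and 2.66 FPKM. None of the 3 genes overlapped between the groups, and for each the STZ + AOS libraries lay closer to the control mean than the STZ libraries did (11442 ± 1361, 484 ± 29.3 and 2.6 ± 0.305 FPKM, SD, n = 3). The STZ + AOS values of Clu all lay above the control mean by more than its SD. Those of Prm2 lay below the control mean, and those of Spp1 on both sides of it.

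Differences below are STZ + AOS minus STZ on the log2(FPKM + 1) scale, so a negative value is lower in STZ + AOS, and the scale understates the difference of low genes. With limma, 7786 of the 14164 genes, or 55%, passed a Benjamini-Hochberg adjusted p of 0.05 (8504 at an unadjusted p under 0.05). Of these, 1680 were higher (11.9% of the genes tested) and 6106 lower (43.1%). A log2 difference of 1 or more was reached by 906 called genes (6.4%), 6 higher (0.0424%) and 900 lower (6.35%). The libraries of the groups did not overlap for 52.2% of genes, with 11.1% higher and 41.1% lower. These are the shares to set beside any statement on overlap between STZ and STZ + AOS below. The median over all tested genes was −0.17. The balance of directions depended on the scaling: 21.6% of called genes were higher on the deposited values, 57.7% after quantile normalization (all-gene median 0.07) and 69.2% after median centring (0.18). A gene also entered the test if it reached 1 FPKM in the STZ libraries alone. This applied to 463 genes, which reached 1 FPKM in fewer than 3 of the 15 libraries outside the STZ group, and 365 of them were lower. Such a gene was tested because STZ was high, so its lower call is no support for a list. Among the other 13701 genes 1680 were higher and 5741 lower (41.9%). The 463 include 26 of the 777 list genes tested, and the counts without them are given beside most lists with such members. Of the genes given with values below they include Bpifa2, Gpnmb, Ildr2, Mmp12, Sall4, Socs3, Wfdc18 and Gbp2. Where few members of a list were called in a direction they are named for that reason, after their values were seen. Under all 3 scalings 1371 of the 1680 higher and 2539 of the 6106 lower genes were called in the same direction. Without STZ replicate 3 the higher calls numbered 1108, and without STZ replicate 1 they numbered 2117, with 5088 and 6808 lower calls. When only the groups compared were fitted, 562 genes were higher and 4382 lower. In that fit the calls of 21 of the 175 named genes ended, those of Slc14a2, Prm1, Tnp1, Tnp2, Star, Insl3, Adgre1, Mael, Ddx25, Mybl1, Tdrd6, Hydin, Lipe, Plin1, Cst8, Klk1b8, Klk1b21 and Klk1b27 among them.

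**Figure D1:**
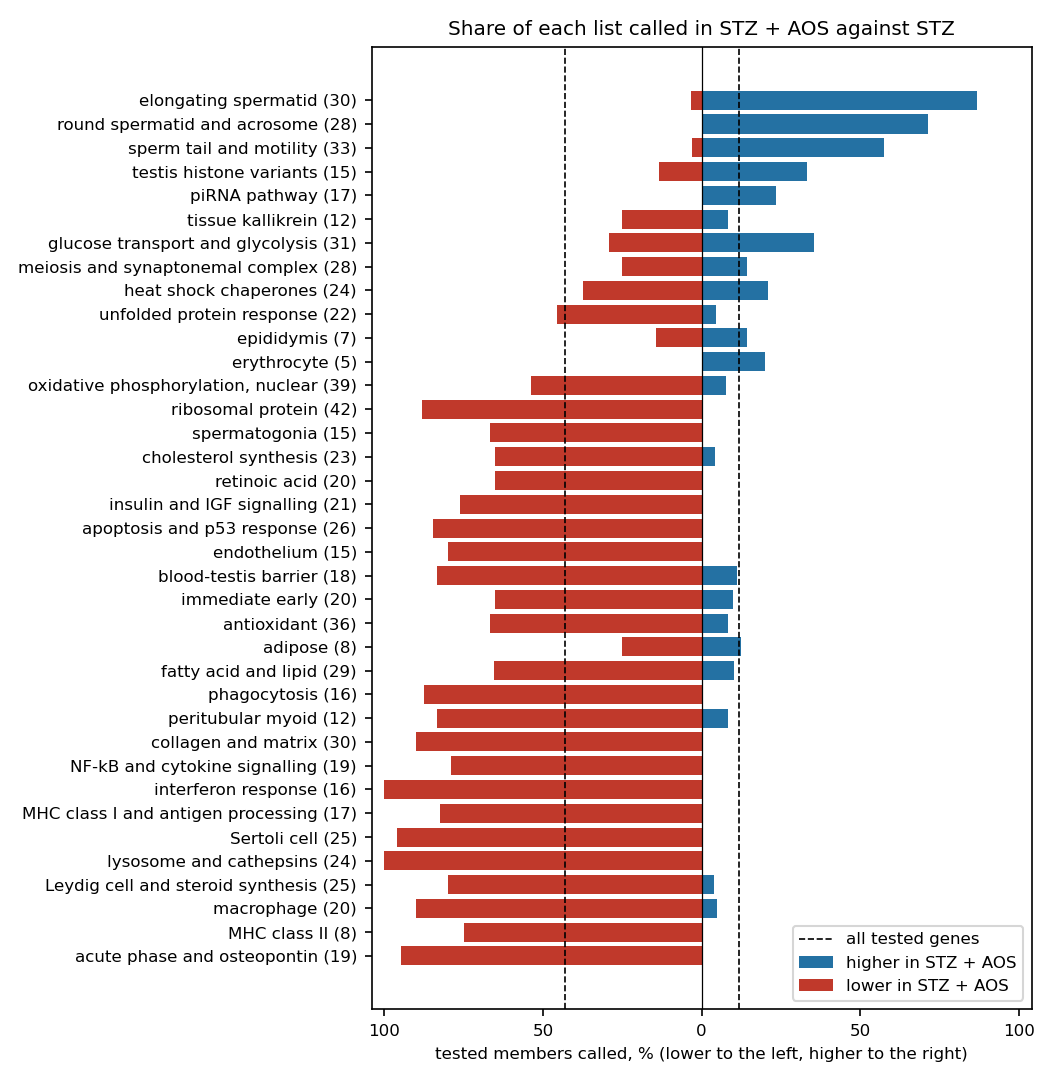
Share of the tested members of each gene list (number in brackets) that were called lower (left, red) or higher (right, blue) in STZ + AOS than in STZ, in percent, on the deposited values. The dashed lines mark the shares among all tested genes, 43.1% lower and 11.9% higher. Spermatid lists extend farthest to the right, and the lysosome and interferon lists reach the left edge.

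Late spermatid genes were mostly higher in STZ + AOS. Of 30 elongating spermatid genes, 26 were higher in STZ + AOS and 1 was lower (Hook3, −0.36), with a median of 0.47 against −0.17 over all genes. The list per library, set against the STZ + AOS mean, was at −0.09, −0.79 and −0.54 in STZ replicates 1 to 3, so replicate 1 lay closest to the STZ + AOS libraries (−0.03 to 0.02). The median kept its sign under both other scalings (0.28 quantile, 0.82 median centring), but after quantile normalization 14 members were called higher. Without STZ replicate 1 there were 29 (median 0.67).

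Protamines and the transition proteins that precede them package sperm DNA. Prm1 was at 11962, 5668 and 8053 FPKM in STZ and 13765, 12529.9 and 13239 FPKM in STZ + AOS (log2 difference 0.69, SE 0.18, adjusted p = 0.00436). Prm2 differed by 0.82 (SE 0.18, adjusted p = 0.0016), and for both protamine genes STZ replicate 1 was the highest of its group and still below every STZ + AOS library. The transition protein gene Tnp2 was at 11594, 6179 and 8384 FPKM and 14196, 12154 and 12399 FPKM (0.61, adjusted p = 0.00505), again with no overlap. Tnp1 was at 5885, 3178 and 4681 FPKM and 6558, 5625 and 6810.2 FPKM (0.51, adjusted p = 0.0133), and here STZ replicate 1 lay above STZ + AOS replicate 2. When only the groups compared were fitted, none of Prm1, Tnp1 and Tnp2 was called. The calls of Prm1 and Tnp2 also ended after quantile normalization (0.15 and 0.05), and that of Tnp1 without STZ replicate 2 (0.27) or STZ + AOS replicate 3 (0.45). Together with Prm3, these 4 genes took 6.57%, 3.55% and 4.73% of the library sum in STZ and 7.72%, 6.96% and 7.46% in STZ + AOS. The difference of 2.43 percentage points gave p = 0.1 in an exact two-sided permutation test, which is the smallest p that 3 against 3 libraries allow.

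Beyond chromatin, genes of the sperm head, midpiece and tail differed in the same direction. Smcp, which encodes a cysteine-rich protein of the mitochondrial capsule, was at 3348, 2499.7 and 2880.0 FPKM in STZ and 4619, 4604 and 4459 FPKM in STZ + AOS (0.66, SE 0.09, adjusted p = 2.42e-05). Odf1, a gene of the outer dense fibres of the tail, was at 1174, 716 and 793 FPKM and 1293, 1239.9 and 1287 FPKM (0.54), and Oaz3, the spermatid ornithine decarboxylase antizyme, differed by 0.62. All 3 genes had their lowest value in STZ replicate 2 and no overlap between groups. Of 28 round spermatid and acrosome genes 20 were higher and 0 lower (median 0.24, or 0.22 and 0.59 under the other scalings), but 11 were called without STZ replicate 3 and 12 without STZ + AOS replicate 3. Among them the spermatid kinase gene Tssk3 differed by 0.53, Spaca7, of an acrosomal protein, by 0.37, and Crisp2, of a cysteine-rich secretory protein of the acrosome and tail, by 0.39. Of 33 sperm tail and motility genes 19 were higher and 1 lower (Prkaca, −0.12; median 0.19, or 0.21 and 0.54). The count of lower members was 0 under both other scalings. It was also 0 without STZ replicate 1, STZ replicate 2, STZ + AOS replicate 2 or STZ + AOS replicate 3. Catsper1, a pore subunit of the sperm calcium channel, was at 89.1, 96.7 and 76.7 FPKM and 107, 126 and 102 FPKM (0.35), and the axonemal genes Hydin and Tcte1 differed by 0.21 and 0.28. These differences were smaller than those of the protamine genes. After median centring 32 tail genes were higher.

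Promoters are shown for Prm1 and Tnp1 because their list moved together and a shared letter pattern lies near their starts. Each is the 150 bases before the RefSeq start (build GRCm38.p6, minus strand), at chr16:10796824-10796973 for Prm1 and chr1:73015900-73016049 for Tnp1. Capitals mark TGACNTCA on either strand, a form of the cyclic AMP response element with a free middle base.
Prm1: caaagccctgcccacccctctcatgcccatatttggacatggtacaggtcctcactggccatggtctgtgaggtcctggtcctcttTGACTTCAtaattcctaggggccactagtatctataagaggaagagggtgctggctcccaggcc
Tnp1: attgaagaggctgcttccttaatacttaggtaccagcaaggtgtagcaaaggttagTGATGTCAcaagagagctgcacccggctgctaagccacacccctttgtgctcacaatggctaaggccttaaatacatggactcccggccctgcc
The match began 64 bases before the start in Prm1 and 94 bases before it in Tnp1. In windows from 250 bases before to 50 after a start, this pattern lay in 8.61% of 14085 windows of 11076 tested genes. It lay in 13 of 31 windows (41.9%) of elongating spermatid genes, in 11 of 30 (36.7%) of round spermatid genes and in 0 of 17 of Sertoli cell genes. Genes called higher held it in 13% of windows and genes called lower in 6.17%. The full palindrome TGACGTCA, which is one of its forms, lay in 2.88% of all windows and 3.23% of those of elongating spermatid genes. The windows of Prm2 and Tnp2 held no match. A match is a description of these letters only.

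Among genes with a symbol of their own, a mean of at least 1 FPKM and no overlap, the largest increase was that of Slc14a2, a urea transporter gene, at 1.8, 9.27 and 7.65 FPKM in STZ and 11.3, 9.64 and 17.4 FPKM in STZ + AOS (1.09, SE 0.39, adjusted p = 0.0278). STZ replicate 1 was far below the other libraries, and without it the difference was 0.51 and not called (0.87 and not called without STZ + AOS replicate 3). With library weights it was 0.66 and not called, and it was not called when only the groups compared were fitted. Of the 6 genes called higher by 1 or more, the other 5 were the loci LOC108168584 (1.07), Gm21180 (1.02), LOC108168553 (1.31), LOC108168542 (1.31) and Gm21794 (1.36, with overlapping groups), which have no gene symbol of their own. Tcp10c, of the t-complex region of chromosome 17, was at 87.7, 159 and 176 FPKM and 258, 262 and 225 FPKM (0.87), and Smok2b, a sperm motility kinase gene on the same chromosome, differed by 0.92. In both, STZ replicate 1 was again lowest. Cyp2a12, a cytochrome P450 gene, was at 7.8, 4.72 and 7.21 FPKM and 13.1, 12.9 and 11.7 FPKM (0.86, adjusted p = 5.81e-05), and here STZ replicate 2 was lowest. The rest of the 10 largest increases besides the protamine genes were Plac9a (0.80, not called without STZ + AOS replicate 1), Tppp2, of a tubulin polymerization protein (0.76), the olfactory receptor gene Olfr733 (0.71) and Upk3bl (0.69).

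**Figure D2:**
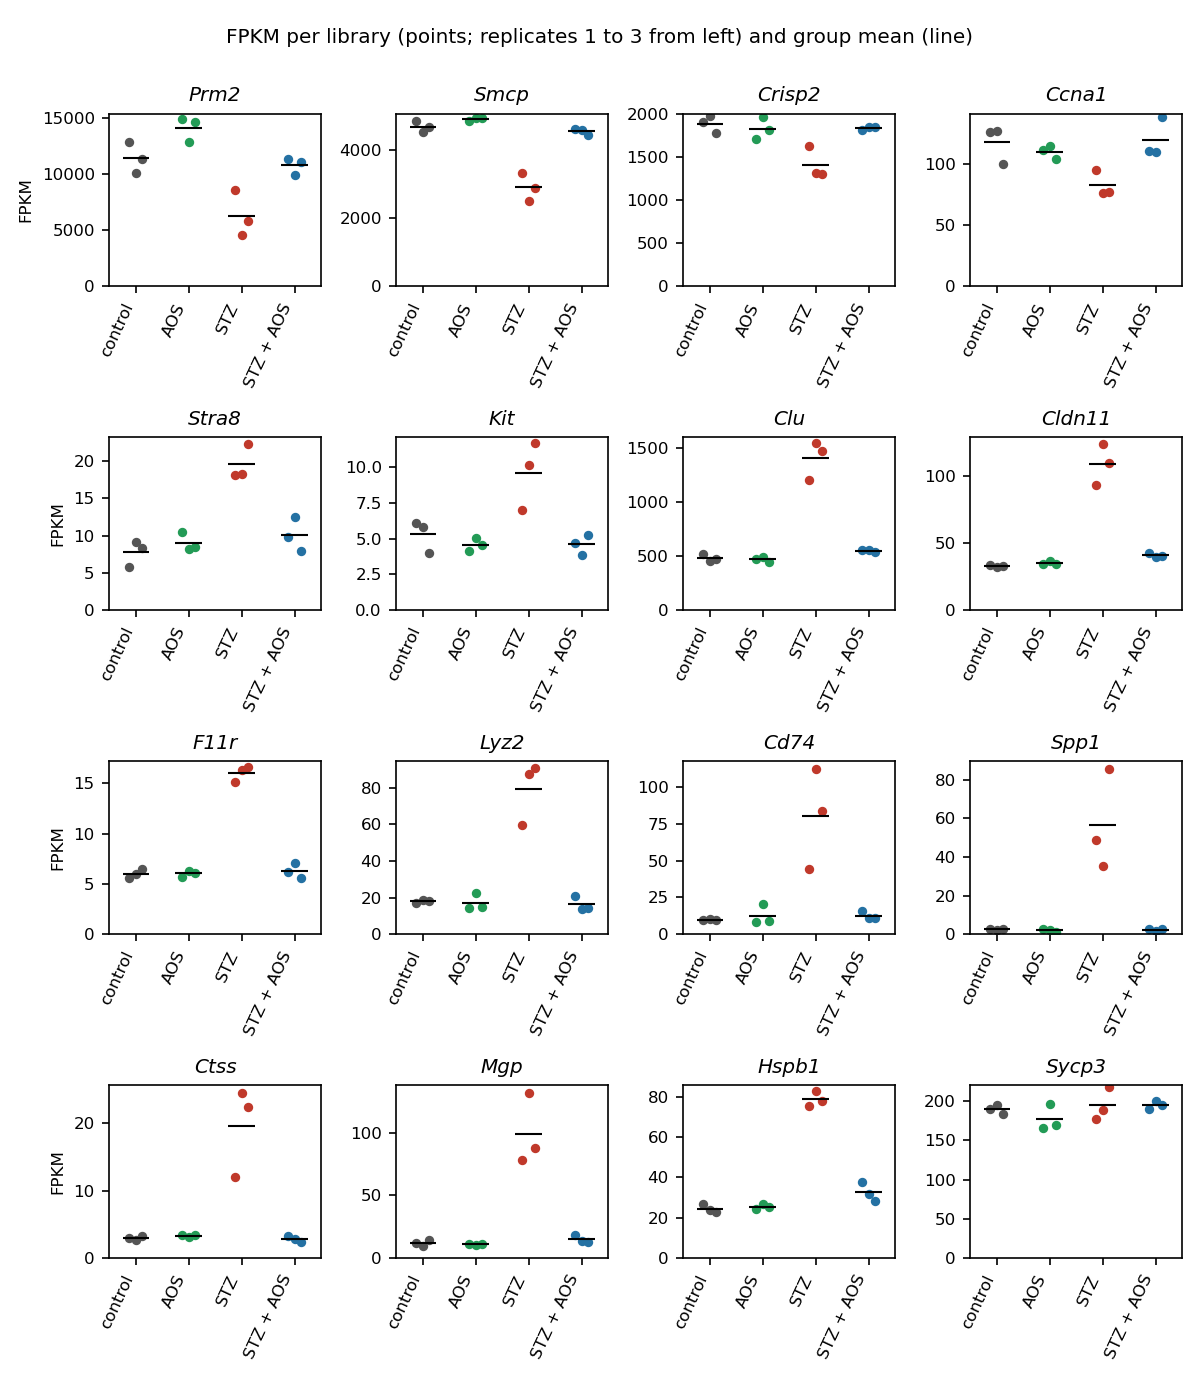
FPKM of 16 genes in each library (points, replicates 1 to 3 from left) of the control, AOS, STZ and STZ + AOS groups, with the group mean as a line and axes starting at 0. In the panels of Prm2, Smcp, Crisp2 and Ccna1 the STZ points lie below the STZ + AOS points, in those from Stra8 to Hspb1 above them, and in that of Sycp3 the groups overlap.

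Among genes of earlier germ cells, those of spermatogonia were lower or not called. Of 15 spermatogonial genes 10 were lower in STZ + AOS and 0 higher (median −0.44). Of these, Sall4 and Zbtb16 were tested only through the STZ libraries, and of the other 13 genes 8 were lower (61.5%, against 41.9% of all such genes). The median stayed below 0 but moved to −0.12 after quantile normalization (3 higher, 5 lower) and −0.10 after median centring (2 higher, 6 lower). Stra8, which retinoic acid induces ahead of meiosis, was at 18.2, 18.2 and 22.4 FPKM in STZ and 9.86, 12.5 and 7.98 FPKM in STZ + AOS (−0.90, adjusted p = 0.000182). Kit, the receptor gene of differentiating spermatogonia, was at 7, 10.1 and 11.7 FPKM and 4.67, 3.85 and 5.25 FPKM (−0.90, adjusted p = 0.000178). The groups overlapped for neither gene. Uchl1, a ubiquitin hydrolase gene of spermatogonia, differed by −0.97, Dmrt1, a transcription factor gene of germ and Sertoli cells, by −0.61 and Sall4 by −0.53.

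Of 28 meiotic genes tested, 4 were higher (14.3%, near the 11.9% of all genes) and 7 lower (25%, against 43.1% of all genes). The higher ones were Ccna1, Syce1 at 0.20, Syce2 at 0.32 and Brdt at 0.17. The median of the list, −0.06, turned to 0.07 after quantile normalization (6 higher, 0 lower) and 0.29 after median centring (16 higher, 0 lower). Ccna1, the cyclin A1 gene needed to leave meiotic prophase, was at 95.2, 76.2 and 77.3 FPKM in STZ and 111, 110.2 and 138 FPKM in STZ + AOS (0.52, adjusted p = 0.000801). Sycp3, a lateral element gene of the synaptonemal complex, was at 177, 189 and 218 FPKM and 190.1, 199.8 and 195 FPKM and did not pass (0.0065, adjusted p = 0.96). The X-linked meiotic gene Tex11 (−0.53), the recombination gene Mei1 (−0.45) and Prdm9, which sets recombination hotspots (−0.42), were lower, but the calls of all 3 ended after both other scalings, and Prdm9 stood at 0.01 after quantile normalization. Of 17 genes of the piRNA pathway, which silences transposons in germ cells, 4 were higher (Mael 0.22, Ddx25 0.14, Mybl1 0.16 and Tdrd6 0.15), or 17 after median centring and 2 without STZ replicate 2, STZ replicate 3 or STZ + AOS replicate 2. None of these 4 calls held when only the groups compared were fitted. Those of Mael, Ddx25 and Tdrd6 also ended after quantile normalization (0.025, 0.017 and 0.10), and that of Mybl1 without STZ replicate 1 (0.13). Of 15 testis histone variant genes 5 were higher, up to 0.69 in Hist1h2aa, and 2 lower (Rnf8, −0.41, and H3f3b, −0.15; median 0.15, 0.014 after quantile normalization, −0.04 without STZ replicate 1). After median centring 11 were higher and 0 lower. Without STZ replicate 3, or without STZ + AOS replicate 3, 1 was higher.

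Several enzymes and structural proteins have a form made in spermatocytes or spermatids beside a form used by other cells, which allows a ratio within a library that no scaling of the library total can move. Such pairs were assembled after the values had been seen, so they are described without a test of the set. In 17 pairs, 13 of the somatic or ubiquitous forms were lower and 0 higher in STZ + AOS, against 43.1% lower among all tested genes. Of the germ cell forms 13 were higher and 0 lower, against 11.9% higher among all tested genes. Germ cell forms such as Gapdhs, Ldhc, Pgk2 and Hspa1l are also members of the spermatid lists above, so the pairs are no separate evidence. In 10 pairs both forms were called, in opposite directions. The log2 ratio of germ cell to other form was higher in all STZ + AOS than in all STZ libraries for 16 of 17 pairs. The share of other gene pairs with such a ratio was not computed. Such a ratio also rises where the other form alone is lower. The median difference in log2 ratio was 1.296.

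Glycolysis showed the split within a pathway. Gapdhs, the sperm form, was at 1045, 634 and 659 FPKM in STZ and 1118, 1093 and 1095 FPKM in STZ + AOS (0.54), while Gapdh was at 272, 376 and 413 FPKM and 206, 179 and 183 FPKM (−0.88). Their log2 ratio was 1.94, 0.75 and 0.68 in STZ and 2.44, 2.61 and 2.58 in STZ + AOS. Every STZ ratio lay below every STZ + AOS ratio, with STZ replicate 1 nearest to them. For phosphoglycerate kinase, Pgk2 of spermatids differed by 0.36 and X-linked Pgk1 by −0.87, and for lactate dehydrogenase, sperm Ldhc differed by 0.19 and Ldhb by −1.11.

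In both ribosomal pairs only the ubiquitous form was called. The largest difference in log2 ratio, 1.56, was that of Rpl10l, a germ cell copy of the X-linked ribosomal gene Rpl10, at 0.055, −0.80 and −0.87 in STZ and 0.89, 1.17 and 1.01 in STZ + AOS. Of the pair, Rpl10 was lower (−1.45) and Rpl10l did not pass (0.097, adjusted p = 0.364). In the other ribosomal pair Rpl39 was lower (−1.40) and Rpl39l did not pass (0.065, adjusted p = 0.569). In the respiratory chain, Cox8c, a testis subunit of cytochrome oxidase, was at 0.19 and Cox8a at −1.20, and both were called. In 2 glycolytic pairs the ubiquitous form was not called, Eno1 at 0.026 and Aldoa at −0.033, while the germ cell forms Eno4 (0.42) and Aldoart1 (0.35) were higher. The pair without the pattern was Cstf2t and Cstf2, polyadenylation factor genes, with a ratio difference of −0.18 and overlapping groups.

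**Figure D3:**
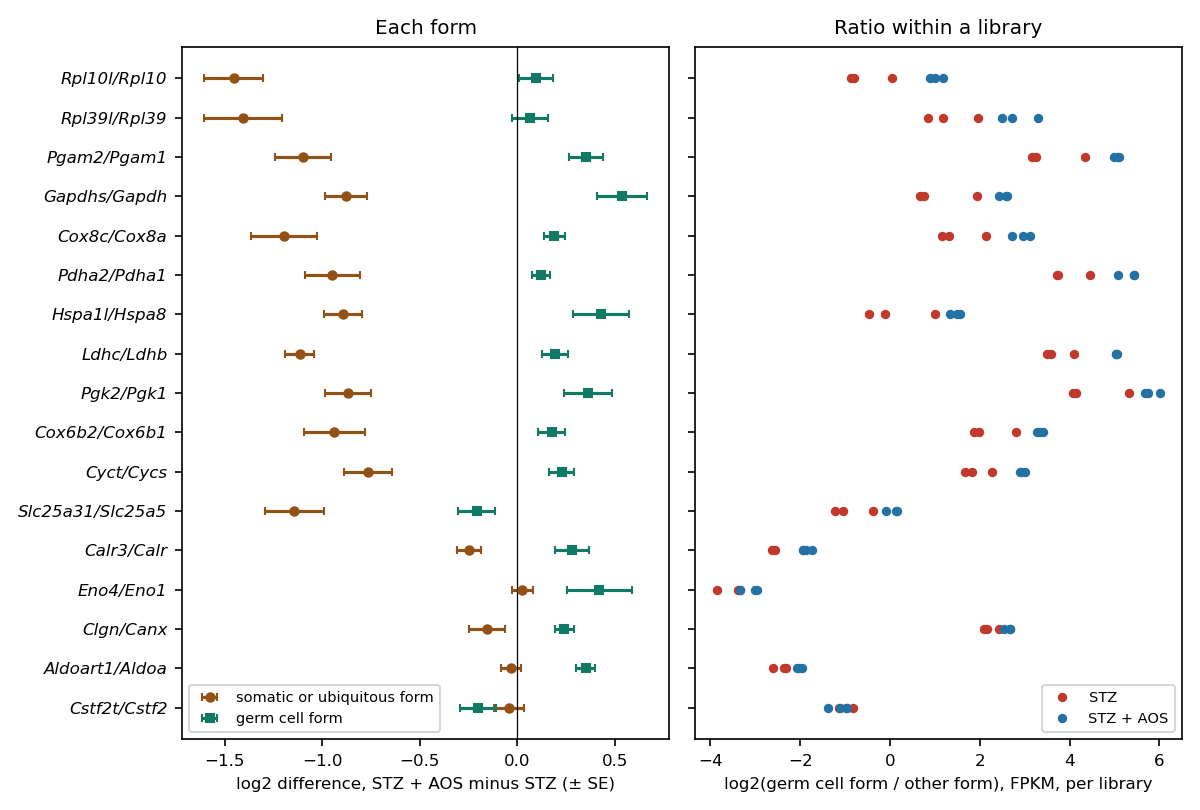
Left, log2 difference STZ + AOS minus STZ with its SE for the germ cell form (squares) and the somatic or ubiquitous form (circles) of 17 pairs. Right, log2 ratio of the 2 forms in each STZ (red) and STZ + AOS (blue) library. Except for Cstf2t/Cstf2, all blue points lie to the right of the red points of their pair.

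Sertoli cell genes were lower in STZ + AOS almost throughout the list. Of 25 tested, 24 were lower and 0 higher, with a median of −1.12, and the median was −0.86 after quantile normalization and −0.77 after median centring (21 lower under each). Per library the list lay at 0.88, 1.20 and 1.25 above the STZ + AOS mean in STZ replicates 1 to 3. Clu differed by −1.35 (SE 0.08, adjusted p = 2.64e-08). Cldn11, a claudin of the barrier, was at 93.9, 124 and 110.2 FPKM in STZ and 42.6, 39.9 and 40.5 FPKM in STZ + AOS (−1.39, adjusted p = 2.54e-08). The Sertoli transcription factor gene Wt1 was at 24.98, 28.8 and 26.9 FPKM and 12.4, 12.4 and 12.2 FPKM (−1.06), a spread within each group far smaller than the gap between them. Sox9, another Sertoli regulator, differed by −1.15, and the intermediate filament gene Vim by −1.66. Fshr, the receptor of follicle-stimulating hormone, and Inha, the inhibin alpha subunit, both named here after their values were seen, were at −0.78 and −1.13. The member not called was the cystatin gene Cst9 (−0.12), also named for that reason.

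Barrier and retinoid genes followed. Of 18 blood-testis barrier genes 15 were lower and 2 higher (median −0.66, −0.41 after quantile normalization and −0.32 after median centring). F11r, of a junctional adhesion molecule, was at 15.1, 16.3 and 16.6 FPKM in STZ and 6.22, 7.04 and 5.57 FPKM in STZ + AOS (−1.23). The vinculin gene Vcl differed by −0.88 and Nectin2, of a cell adhesion molecule, by −0.69, whereas Cldn3 and Nectin3, named after their values were seen as the 2 higher members, were at 0.29 and 0.16, and neither was called without STZ replicate 2, STZ replicate 3, STZ + AOS replicate 1 or STZ + AOS replicate 3. Of 20 retinoic acid genes 13 were lower and 0 higher (median −0.54). After quantile normalization 10 were lower and 4 higher, and after median centring 10 and 7 (median −0.20 under each). Stra6, a retinol uptake receptor gene, was at 6.25, 9.78 and 7.11 FPKM in STZ and 3.33, 3.1 and 3.19 FPKM in STZ + AOS (−1.03, adjusted p = 1.06e-05). Its groups did not overlap. Rara, the retinoic acid receptor alpha gene, differed by −0.70 and Cyp26b1, which degrades retinoic acid, by −0.71.

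Leydig cell genes were lower in STZ + AOS, but the STZ libraries disagreed. Of 25 tested, 20 were lower and 1 higher (Nr4a1, 0.31; median −1.13, −0.87 and −0.79 under the other scalings). Hsd11b1 was tested only through the STZ libraries, and of the other 24 genes 19 were lower. The list lay at 0.15 above the STZ + AOS mean in STZ replicate 1 and at 1.47 and 1.73 in replicates 2 and 3. Insl3, the insulin-like peptide hormone gene of Leydig cells, was at 1574, 10967 and 11438 FPKM in STZ and 1938, 1828 and 2198 FPKM in STZ + AOS (−1.55, adjusted p = 0.0147). STZ replicate 1 lay below every STZ + AOS library, and STZ replicates 2 and 3 lay far above them. Star, which moves cholesterol into mitochondria for steroid synthesis, was at 15.5, 62.7 and 72.4 FPKM and 18.6, 11.04 and 23.8 FPKM (−1.24, adjusted p = 0.0152). Cyp17a1, an enzyme of androgen synthesis, was at 78.99, 419 and 625 FPKM and 147, 66.98 and 161 FPKM and did not pass (−1.23, adjusted p = 0.055). Without STZ replicate 1 all 3 were called and 22 list members were lower (median −1.56). There were 14 lower members without STZ replicate 2 and 13 without STZ replicate 3 (median −0.69), and in both cases Insl3 (−1.10 and −1.07) and Star (−0.95 and −0.85) were not called. Neither was called when only the groups compared were fitted, and Star was not called without STZ + AOS replicate 2 (−0.95). Members with no overlap included the steroidogenic regulator Nr5a1 (−1.25), the cytochrome b5 gene Cyb5a (−1.25) and the interstitial receptor gene Pdgfra (−1.29).

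Other cells of the interstitium and tubule wall were also represented by lower values. Of 12 peritubular myoid genes 10 were lower and 1 higher (Actg2, 0.25; median −0.80, −0.45 after median centring), with the smooth muscle actin gene Acta2 at 30.6, 36.7 and 57.4 FPKM in STZ and 22.2, 22.8 and 21.7 FPKM in STZ + AOS (−0.83) and the myosin light chain gene Myl9 at −1.01. Actg2 was not called higher after quantile normalization, or without STZ replicate 2, STZ replicate 3, STZ + AOS replicate 1 or STZ + AOS replicate 3. Of 15 endothelial genes 12 were lower and 0 higher (median −0.64), or 5 and 7 lower after quantile normalization and median centring (medians −0.22 and −0.29). Robo4, a receptor gene of vessel walls, was at 4.32, 8.21 and 7.02 FPKM and 1.58, 1.06 and 1.08 FPKM (−1.72), with no overlap, and Pecam1, of an endothelial adhesion molecule, was at −0.80. Of 30 collagen and matrix genes 27 were lower and 0 higher (median −0.88, −0.53 under each other scaling, 18 and 20 lower). The laminin genes Lama4 and Lama5 were tested only through the STZ libraries, and of the other 28 genes 25 were lower. Sparc, of a collagen-binding matrix protein, was at 237, 361 and 341 FPKM and 119, 110.1 and 105 FPKM (−1.46, adjusted p = 2.99e-07), Dcn (decorin) differed by −1.69 and the laminin gene Lamc1 by −1.34. Col1a1, a chain of type I collagen named after its values were seen, did not pass (−0.64, adjusted p = 0.0607).

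**Figure D4:**
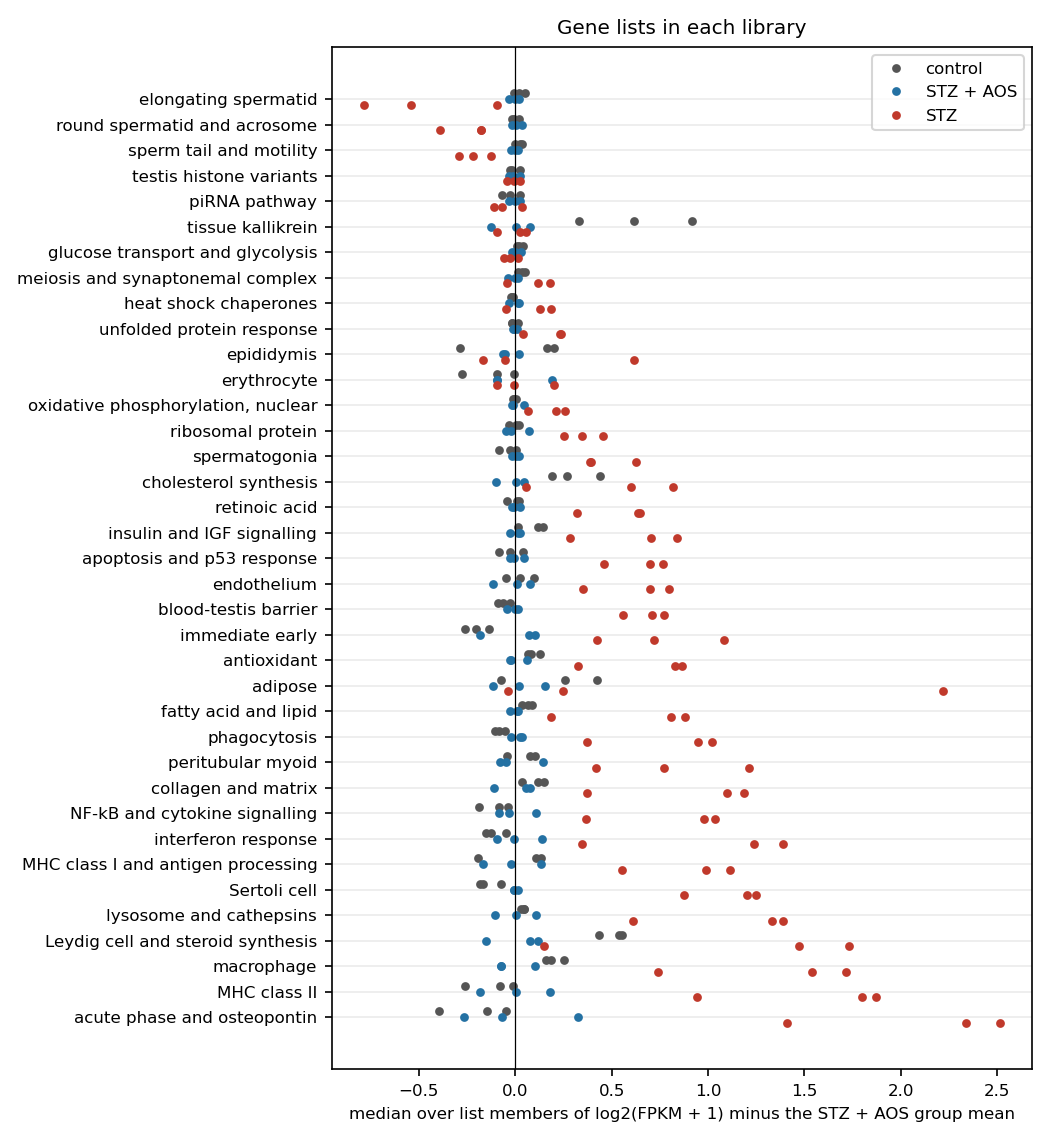
Median over the members of each list of log2(FPKM + 1) minus the STZ + AOS group mean, 1 point per library of the control (grey), STZ + AOS (blue) and STZ (red) groups. STZ replicate 1 is the red point nearest to 0 in the Leydig, macrophage and elongating spermatid lists, at 0.15, 0.74 and −0.09.

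Macrophage and antigen presentation genes held some of the widest gaps. Of 20 macrophage genes 18 were lower in STZ + AOS and 1 was higher (median −1.33, −1.02 and −0.98 under the other scalings, 14 lower under each). Cd14, Cd163 and Itgam were tested only through the STZ libraries, and of the other 17 genes 15 were lower. Lyz2, the lysozyme gene of myeloid cells, was at 59.99, 87.4 and 90.7 FPKM in STZ and 21, 13.9 and 14.1 FPKM in STZ + AOS (−2.21, adjusted p = 3.22e-07). Tyrobp, a signalling adaptor gene of myeloid cells, was at 10.2, 22.9 and 20.2 FPKM and 3.97, 2.39 and 2.37 FPKM (−2.22). Neither overlapped, and STZ replicate 1 was the lowest of its group in both. Cd68, of a lysosomal membrane protein of macrophages, differed by −1.75. Adgre1, of the F4/80 antigen, was at 1.02, 2.65 and 2.82 FPKM and 0.94, 0.72 and 1.26 FPKM with overlapping groups (−0.63, adjusted p = 0.0115), and its call ended when only the groups compared were fitted, under both other scalings (−0.24 and −0.29) and without STZ replicate 2 (−0.50), STZ replicate 3 (−0.47) or STZ + AOS replicate 2 (−0.54). The higher member was Aif1 (0.28, named after its values were seen), at 331, 240.2 and 237 FPKM and 346, 304 and 323 FPKM, and its groups overlapped through STZ replicate 1. Of the 20 macrophage genes it was the only one called higher, and without STZ replicate 2 or 3, or STZ + AOS replicate 1, none was.

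MHC class II molecules show extracellular peptides to T cells. Of 8 class II genes 6 were lower and 0 higher (median −1.54). The invariant chain gene Cd74 was at 44.3, 112 and 83.4 FPKM in STZ and 15.6, 10.7 and 11.02 FPKM in STZ + AOS (−2.51, adjusted p = 1.03e-05), H2-Aa differed by −2.34 and Ctss, of the protease that trims the invariant chain, by −2.37. Of 17 genes of MHC class I and antigen processing 14 were lower and 0 higher (median −0.94, −0.59 after median centring), with H2-D1 at −1.39 and the peptide loading gene Tapbp at 38.7, 40.5 and 40 FPKM and 23.8, 25.7 and 22.5 FPKM (−0.71), close within each group. Lymphocyte markers could hardly be read: 1 of 15 was tested, the T cell receptor chain gene Cd3d, which did not pass (0.28, adjusted p = 0.342).

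Of 24 interferon response genes 22 were in the table and 16 were tested, and these 16 were lower (median −0.92), or 10 after quantile normalization and 11 after median centring (medians −0.51 and −0.57). Gbp2 and Ifit3 were tested only through the STZ libraries. The other 14 were lower, against 41.9% of all such genes, and 11 of the 16 were without STZ replicate 2, STZ replicate 3 or STZ + AOS replicate 2. Ifitm3, of an antiviral membrane protein, was at 42.4, 96.5 and 94.5 FPKM in STZ and 25.2, 20.9 and 16.6 FPKM in STZ + AOS (−1.78), and its relative Ifitm2 was at −1.81. Of 19 genes of NF-kB and cytokine signalling 15 were lower and 0 higher (median −0.88, −0.54 after median centring with 10 lower). Il1b, Nfkbie, Socs3 and Tnfaip3 were tested only through the STZ libraries, and of the other 15 genes 12 were lower. Nfkbia, the inhibitor gene that NF-kB induces, was at 11.6, 15.6 and 17.5 FPKM and 7.53, 7.23 and 6.69 FPKM (−0.94), Socs3, a feedback inhibitor gene of cytokine signalling, was at −1.62 and Tnfrsf1a, a receptor gene of tumour necrosis factor, at −1.29. The groups did not overlap for any of these genes.

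Every one of 24 lysosome and cathepsin genes tested was lower (median −1.12; 24 lower after quantile normalization, 22 lower and 1 higher after median centring). Ctsk was tested only through the STZ libraries. Lgmn, of the lysosomal protease legumain, was at 66.8, 84.3 and 78.9 FPKM in STZ and 29.4, 25.7 and 21.4 FPKM in STZ + AOS (−1.56, adjusted p = 2.64e-08). Ctsd, of cathepsin D and named here after its values were seen, was at 67.3, 107 and 118 FPKM and 32.6, 30.2 and 31.6 FPKM (−1.56), and Psap, of the prosaposin precursor of lysosomal lipid-binding proteins, was at −1.21. Of 16 phagocytosis genes 14 were lower and 0 higher (median −0.80, −0.45 after median centring with 1 higher). Apoe, a lipid carrier gene, was at 213, 372 and 407 FPKM and 75.3, 80.2 and 63.9 FPKM (−2.11). It is no member of the phagocytosis list but of the acute phase and osteopontin list described below. The receptor genes Axl (−1.20) and Tyro3 (−1.07), through which Sertoli cells and macrophages take up dead cells, were lower with no overlap.

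The promoters of Ctsd and of the interferon-induced GTPase gene Gbp2 are shown for letter patterns shared within their lists, both genes being chosen after their values were seen. They are the 150 bases before the RefSeq start (GRCm38.p6), at chr7:142387828-142387977 on the minus strand for Ctsd and chr3:142620513-142620662 on the plus strand for Gbp2. Capitals mark TCACGTG in Ctsd, an E-box form known from lysosomal genes, and in Gbp2 the core of the interferon-stimulated response element, GAAA and GAAA with 2 free bases between them, each on either strand.
Ctsd: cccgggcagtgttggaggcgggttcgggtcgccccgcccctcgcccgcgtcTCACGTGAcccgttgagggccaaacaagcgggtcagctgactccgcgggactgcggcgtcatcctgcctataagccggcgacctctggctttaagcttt
Gbp2: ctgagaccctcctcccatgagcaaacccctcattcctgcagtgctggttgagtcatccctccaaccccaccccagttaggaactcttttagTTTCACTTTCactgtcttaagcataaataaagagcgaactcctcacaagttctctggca
In Ctsd the capitals hold 2 overlapping matches on opposite strands. Over the same windows as above TCACGTG lay in 6 of 24 (25%) of the lysosome list and in 5.5% of all tested genes. The interferon-stimulated response element core lay in 7 of 16 (43.8%) of the interferon list and in 2.75% of all. Gbp2 itself was at 1.06, 2.11 and 2.02 FPKM in STZ and 0.78, 0.46 and 0.38 FPKM in STZ + AOS (−0.81).

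The 10 largest decreases included several genes of an acute phase and osteopontin list. Of 19 tested genes of this list 18 were lower and 0 higher (median −2.23, or −2.20 and −1.89 under the other scalings). Gpnmb, Saa3 and Serpina3g were tested only through the STZ libraries, and of the other 16 genes 15 were lower. This list was drawn up with earlier results of these samples known, so it is no independent evidence of its direction. Spp1 (chromosome 5, 104435118 to 104441050) differed by −4.04 (SE 0.29, adjusted p = 1.12e-07). Gpnmb, a glycoprotein gene of lipid-laden macrophages, was at 14.6, 4.69 and 17.7 FPKM in STZ and 0.37, 0.25 and 0.27 FPKM in STZ + AOS (−3.19). The macrophage elastase gene Mmp12 was at 4.94, 2.61 and 13.5 FPKM and 0.19, 0 and 0 FPKM (−2.68). Both were below 1 FPKM in every library outside the STZ group and were tested only through it. The galectin-3 gene Lgals3 was at −2.58. For these 4 genes STZ replicate 3 was the highest library and STZ replicate 2 the lowest of the STZ group.

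A second set among the 10 largest decreases ordered the STZ libraries otherwise. Bpifa2, of a secreted protein best known from salivary gland, was at 12.8, 31.9 and 10.1 FPKM in STZ and 1.34, 0.08 and 0.16 FPKM in STZ + AOS (−3.58). Mgp, of matrix Gla protein, an inhibitor of calcification, was at 78.1, 132 and 88.1 FPKM and 18.6, 13.3 and 12.6 FPKM (−2.65, adjusted p = 3.79e-07). Both peaked in STZ replicate 2, as did the acute phase genes Lrg1 (−2.64) and Serpina3n (−2.53). Ly6d, at 1.07, 21.2 and 32.2 FPKM and 0.72, 0.48 and 0.6 FPKM (−2.85, adjusted p = 0.00291), was low in STZ replicate 1, though above all STZ + AOS libraries. Wfdc18, at 3.78, 5.28 and 7.57 FPKM and 0.34, 0 and 0 FPKM, differed by −2.53. Bpifa2 and Wfdc18 were tested only through the STZ libraries.

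Of 20 immediate early genes 13 were lower and 2 higher (Fosl1, 0.29, and Klf4, 0.16; median −0.75, −0.37 and −0.40 under the other scalings, with 4 and 5 higher). Fos, Fosl2 and Maff were tested only through the STZ libraries, and of the other 17 genes 10 were lower. The higher calls fell to 0 without STZ replicate 3, STZ + AOS replicate 1 or STZ + AOS replicate 2, and to 1 without STZ replicate 1 or STZ + AOS replicate 3. Junb, of an AP-1 transcription factor, was at 6.13, 11.4 and 10.9 FPKM in STZ and 4.28, 3.47 and 3.06 FPKM in STZ + AOS (−1.15). Of 26 genes of apoptosis and the p53 response 22 were lower and 0 higher (median −0.64, −0.30 and −0.29, 13 lower under each), or 21 of 25 without Phlda3, tested only through the STZ libraries. Among them were Gadd45a, a growth arrest gene, at −1.45 and Sesn2, of a stress sensor of the mTOR pathway, at −0.87. Of 24 heat shock chaperone genes 9 were lower (37.5%, near the 43.1% of all genes) and 5 higher (20.8%, against 11.9%), and without Hspa1a, tested only through the STZ libraries, 8 of 23 were lower. Their median of −0.07 turned to 0.27 after median centring (14 higher, 8 lower). The small heat shock protein gene Hspb1 was at 75.3, 82.7 and 77.8 FPKM and 37.9, 31.9 and 28.1 FPKM (−1.25, adjusted p = 1.14e-07), and Hspa8, the constitutive Hsp70 gene, was at −0.89. Higher members, named after their values were seen, were the testis chaperone genes Hspa4l (0.29), Dnajb3 (0.38) and Hspb9 (0.36) along with Dnajb1 (0.16) and Dnajb4 (0.32). Of 22 unfolded protein response genes 10 were lower (45.5%, near the 43.1% of all genes) and 1 higher (Herpud1, 0.40), with a median of −0.15 that became 0.20 after median centring (13 higher, 5 lower). The count of higher members was 0 without STZ replicate 2, STZ replicate 3, STZ + AOS replicate 1 or STZ + AOS replicate 3, and 2 without STZ replicate 1. Xbp1, the central transcription factor gene of this response, was at 9.78, 15.4 and 16.2 FPKM and 6.31, 5.66 and 4.77 FPKM (−1.15).

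Of 36 antioxidant genes 24 were lower and 3 higher (Txnrd3, 0.20, Hmox2, 0.28, and Gstm5, 0.32; median −0.76, −0.52 and −0.41 under the other scalings, with 2 and 11 higher). The peroxiredoxin gene Prdx2 was at 53.8, 83.6 and 76.7 FPKM in STZ and 27.9, 22.7 and 26.3 FPKM in STZ + AOS (−1.42, adjusted p = 3.4e-07), and the glutathione transferase genes Gsta4 and Mgst1 were at −1.33 and −1.68. Gpx4, a selenoenzyme gene abundant in spermatids and named after its values were seen, did not pass (0.18, adjusted p = 0.0634). Of 42 ribosomal protein genes 37 were lower and 0 higher (median −0.36, −0.45 after quantile normalization), but after median centring 9 were lower and 6 higher (median −0.01). X-linked Rps4x was at 82.4, 111 and 112 FPKM and 34.8, 29.8 and 28.8 FPKM (−1.67), Rpl36a, also X-linked, at −1.43 and Rpl3 at −0.68, each with no overlap.

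Among metabolic lists, lipid and insulin-like signalling genes were mostly lower. Of 29 fatty acid and lipid genes 19 were lower and 3 higher (Fabp9, 0.40, Acsl1, 0.44, and Cpt1b, 0.21; median −0.79, −0.44 and −0.45 under the other scalings, with 2 and 8 higher). Fasn, the fatty acid synthase gene, was at 16.6, 18.2 and 19.1 FPKM in STZ and 10.04, 10.1 and 9.7 FPKM in STZ + AOS (−0.79, adjusted p = 9.1e-08), and Cpt1a, which brings fatty acids into mitochondria for oxidation, was at −1.18. Of 23 cholesterol synthesis genes 15 were lower and 1 higher (Fdft1, 0.16; median −0.49), or 9 lower without STZ replicate 3. After quantile normalization 6 were lower and 4 higher, and after median centring 6 and 7 (medians −0.12 and −0.15). Dhcr7, of the last step of synthesis, was at −1.17. Of 21 insulin and IGF signalling genes 16 were lower and 0 higher (median −0.59), or 9 lower and 3 higher after quantile normalization and 11 and 3 after median centring (medians −0.21 and −0.25). Without Pik3r1, tested only through the STZ libraries, 15 of 20 were lower. The IGF binding protein gene Igfbp7 was at 76.3, 142 and 125 FPKM and 43.02, 37.1 and 40.4 FPKM (−1.44), the receptor gene Igf1r at −0.98 and the insulin-restrained transcription factor gene Foxo3 at −0.98.

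Among 31 genes of glucose transport and glycolysis, 11 were higher and 9 lower. Their median of 0.03 became −0.04 after quantile normalization and 0.37 after median centring (20 higher, 9 lower), and 5 to 7 members were higher without STZ replicate 2, STZ replicate 3, STZ + AOS replicate 1 or STZ + AOS replicate 3. Pfkl, a phosphofructokinase subunit gene, was at 11.6, 16.02 and 16.9 FPKM in STZ and 5.31, 5.7 and 5.49 FPKM in STZ + AOS (−1.27). Of 39 nuclear genes of oxidative phosphorylation 21 were lower (53.8%, against 43.1% of all genes) and 3 higher (7.69%, against 11.9%). Their median of −0.21, close to the −0.17 of all genes, became 0.14 after median centring (20 higher, 5 lower), and after quantile normalization 0 were higher. The higher members were the testis forms Cyct (0.23), Cox8c (0.19) and Cox6b2 (0.18), and among the lower ones Atp5a1, of the ATP synthase, was at −0.42, a call that ended after median centring.

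Markers of tissue that can come along in dissection, or of blood, were read in the same fit. Of 5 erythrocyte genes tested 1 was higher (Bpgm 0.20) and 0 lower, and the haemoglobin gene Hba-a1 was at 46.8, 379 and 164 FPKM in STZ and 153, 192 and 115 FPKM in STZ + AOS, with overlapping groups (0.066, adjusted p = 0.927). Without STZ replicate 1 the haem synthesis gene Alas2 was called lower (−0.27). Of 8 adipose genes 2 were lower (Lpl and Plin1, −0.67) and 1 higher (Lipe, 0.46), with a median of −0.78, or −0.16 if STZ replicate 3 is left out and −1.22 if STZ replicate 1 is. The calls of Plin1 and Lipe ended when only the groups compared were fitted. The list lay at −0.036, 0.25 and 2.22 from the STZ + AOS mean in STZ replicates 1 to 3, and at −0.11 to 0.15 in STZ + AOS. Cfd, the adipsin gene of fat cells, was at 4.08, 6.22 and 62.1 FPKM and 4.37, 3.96 and 2.38 FPKM and did not pass (−1.56, adjusted p = 0.123), with STZ replicate 3 far above the rest. Without STZ replicate 1 it was called (−2.25). Lpl, a lipoprotein lipase gene of fat and muscle, was highest in the same library, at 1.31, 1.74 and 6.29 FPKM in STZ and 0.65, 0.51 and 0.35 FPKM in STZ + AOS (−1.26, adjusted p = 0.00474). Without STZ replicate 1, 5 adipose genes were lower, and without STZ replicate 2 or 3, or STZ + AOS replicate 1 or 2, 1 was. The part of fat in the lipid gene differences was not tested. Of 16 epididymal genes 7 were tested (Cst11 only through the STZ libraries), 1 was lower (Wfdc10 −1.37) and 1 higher (Cst8 0.48), and Crisp1, an abundant epididymal gene named after its values were seen, did not pass (−0.54, adjusted p = 0.806). Cst8 is also a member of the round spermatid and acrosome list, so its call cannot be assigned to epididymal tissue.

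Against control, STZ + AOS differed in few genes. Of 14164 genes 6 passed (0.0424%), 4 lower (0.0282%) and 2 higher (0.0141%; 1130 at an unadjusted p under 0.05), and the all-gene median was 0.00. The count was 135 with library weights, 76 when only these groups were fitted, 12 after median centring, 1 without control replicate 2, and 0 without control replicate 1 or without STZ + AOS replicate 2. No member of the Sertoli, macrophage or elongating spermatid list was called, and their medians from control were 0.12, −0.20 and −0.011. Per library, set against the STZ + AOS mean, the Sertoli list lay at −0.18 to −0.074 in control and −0.0052 to 0.016 in STZ + AOS, and the macrophage list at 0.16 to 0.25 and −0.073 to 0.10, without overlap. The share of all genes or lists without overlap was not computed for this comparison, so these are values only. The elongating spermatid list overlapped (−0.0075 to 0.052 in control, −0.033 to 0.020 in STZ + AOS). A count of this size does not show that the groups were alike.

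Of 12 tested tissue kallikrein genes 3 were lower in STZ + AOS than in STZ (25%, against 43.1% of all genes). In the same comparison 1 was higher (8.33%, against 11.9% of all genes). Both shares were below those of all genes. Against control 3 were lower, where 0.0282% of all genes were. Against STZ, 1 was lower without STZ replicate 3 (0 higher), 2 without STZ replicate 2 (0 higher), STZ + AOS replicate 2 or STZ + AOS replicate 3, and 1 lower with 3 higher after quantile normalization. After median centring 2 were lower and 3 higher. The 3 lower than in control were among the 4 genes lower than in control. They encode secreted serine proteases, which Leydig cells express, and form a cluster of closely similar paralogs between which reads are hard to assign. Klk1b24 (chromosome 7, 44188236 to 44192455) was at 29.6, 23.4 and 13.7 FPKM in control, 0.78, 3.66 and 9.59 FPKM in STZ and 0.44, 0 and 0.53 FPKM in STZ + AOS. The STZ + AOS libraries were the lowest of all groups, and those of AOS without STZ, at 6.03, 9.2 and 7.27 FPKM, lay below control as well. The difference from control was −4.10 (adjusted p = 0.00406), and that from STZ was −1.77 (adjusted p = 0.00561). Klk1b21 and Klk1b27 differed from control by −4.21 and −3.50, and from STZ by −1.58 and −1.41. Without STZ replicate 3 the difference from STZ was −0.77 and −0.82, and it was called for neither gene. Klk1b8, a paralog expressed at a higher level, did not share this pattern: it was at 78.2, 35.7 and 48.8 FPKM in STZ and 74.3, 77 and 75.4 FPKM in STZ + AOS (0.54, not called without STZ replicate 2 or 3), and its control mean was 80.8 ± 5.4 FPKM (SD, n = 3).

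The fourth was Gsta3, a glutathione transferase gene that also acts in steroid synthesis, at 26.9, 28.4 and 41.5 FPKM in control, 17.5, 20.99 and 39.8 FPKM in STZ and 11.03, 9.49 and 12.5 FPKM in STZ + AOS (−1.45 from control, adjusted p = 0.02; −1.10 from STZ, adjusted p = 0.00068). Leydig genes as a list had a median of −0.58 from control with 0 of 25 called. Insl3 had a control mean of 3144 ± 208 FPKM and Cyp17a1 one of 348 ± 36.1 FPKM (SD, n = 3), so STZ + AOS and STZ replicate 1 lay below control while STZ replicates 2 and 3 lay above it.

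The 2 higher genes are best known from neurons. Aplp1, of an amyloid precursor-like protein, was at 5.43, 5.22 and 4.43 FPKM in control, 19.1, 33.6 and 26.7 FPKM in STZ and 10.8, 9.96 and 9.53 FPKM in STZ + AOS. The STZ + AOS libraries lay between the other groups, 0.88 from control (adjusted p = 0.0344) and −1.27 from STZ (adjusted p = 4.28e-06). Iglon5, of a neuronal adhesion protein, was at 1.62, 1.41 and 1.83 FPKM, 2.87, 2.79 and 2.94 FPKM and 2.59, 3.86 and 3.3 FPKM, and it overlapped between STZ and STZ + AOS (0.13, adjusted p = 0.322). All 6 calls ended without control replicate 1 and without STZ + AOS replicate 2.

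**Figure D5:**
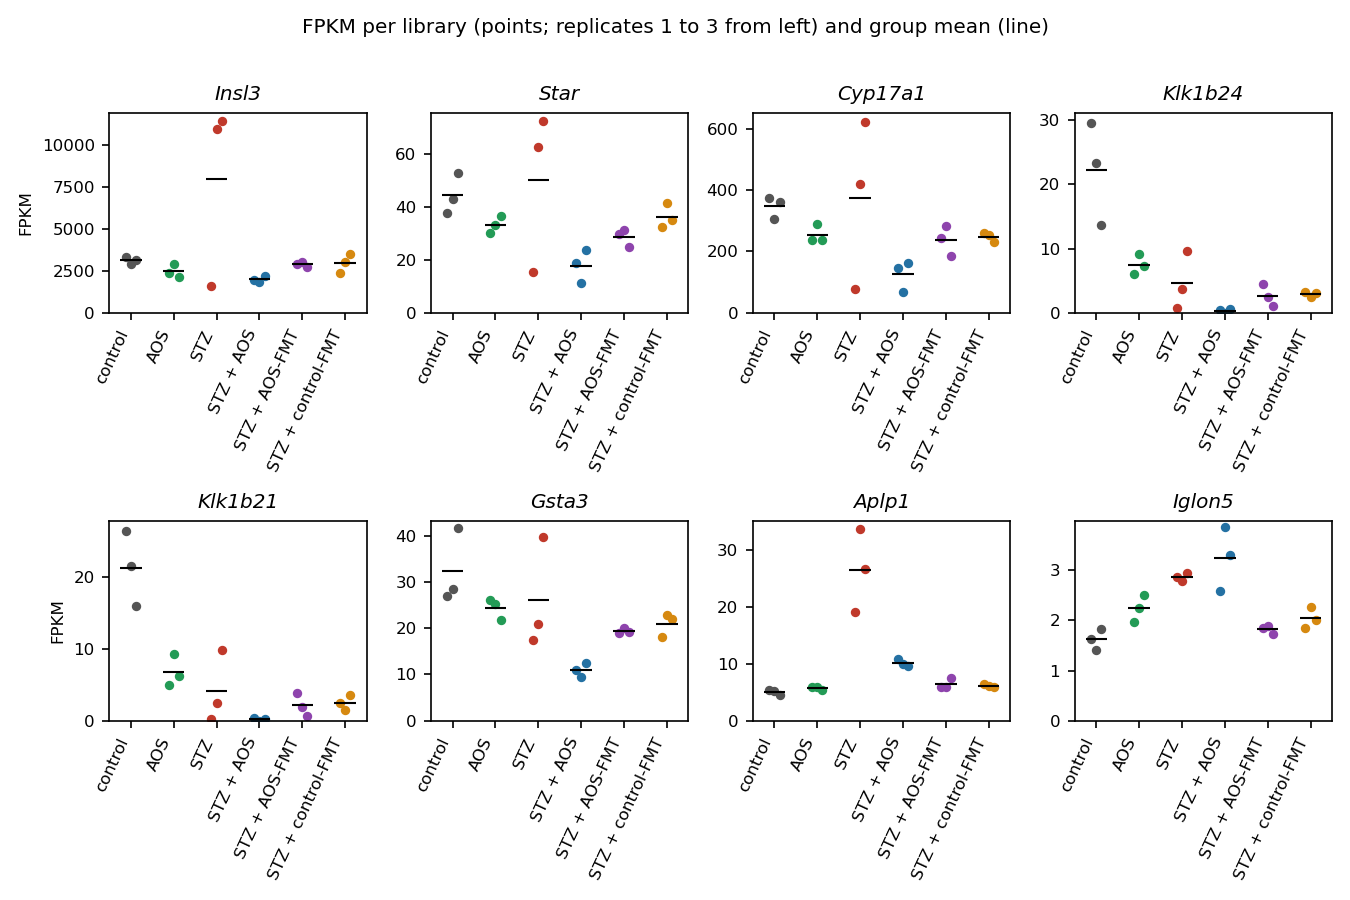
FPKM of 8 genes in each library (points, replicates 1 to 3 from left) of all 6 groups, with the group mean as a line. Klk1b24, Klk1b21 and Gsta3 have their lowest group mean in STZ + AOS, Aplp1 lies between control and STZ, and in Insl3, Star and Cyp17a1 the first STZ point lies apart from the other 2.

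Whether AOS made the same difference without STZ was tested as the difference between STZ + AOS and STZ minus that between AOS and control. It passed for 4984 of 14164 genes (35.2%), 867 higher (6.12%) and 4117 lower (29.1%), and for 7235 without STZ replicate 1. For the Sertoli list 22 of 25 genes passed downward (median −1.11). Cldn11, at 34.5, 36.8 and 34.8 FPKM in AOS and 33.99, 32.1 and 33.3 FPKM in control, gave −1.48 (adjusted p = 3.57e-06), Clu gave −1.32 and Spp1 −3.78. Smcp gave 0.59 (adjusted p = 0.00284), but Prm1 and Prm2 did not pass (0.45 and 0.51, adjusted p = 0.178 and 0.138). The AOS libraries held Prm2 at 14893, 12890.2 and 14633 FPKM, above the control mean. No kallikrein gene passed, and Klk1b24 gave −0.37 (adjusted p = 0.7).

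Few genes separated STZ + AOS from the transplant groups, which also received STZ. Against STZ with AOS FMT, limma called 0 of 14164 genes, or 0% (920 at an unadjusted p under 0.05; 5 when only these groups were fitted). Against STZ with control FMT it called 1, or 0.00706% (1167 at an unadjusted p under 0.05). This was Ckb, the brain-type creatine kinase gene, at 6.09, 5.53 and 5.79 FPKM in the control FMT libraries and 2.97, 2.5 and 2.26 FPKM in STZ + AOS (−0.93, adjusted p = 0.0264). The groups did not overlap, and the AOS FMT libraries, at 3.54, 3.15 and 4.01 FPKM, lay between them. The count was 33 when only these groups were fitted, 21 with library weights, and 0 without STZ + AOS replicate 2 or without STZ + AOS replicate 3. A difference that misses the threshold does not show that values were equal.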

How the data were processed

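RNA of whole testis was sequenced in 18 libraries, 3 for each of 6 groups. The authors deposited 1 table of expression values, whose header names no unit. The deposited values were taken as FPKM because low values of a gene are multiples of a step, and longer transcripts have smaller steps. RPKM cannot be told apart from this, and TPM with genes left out is possible. Per the submitters' processing notes, Bowtie 0.12.2 and the build mm10 were used, with no role given. Which counter, annotation and scaling were used is not given in the sources used here. Symbols were matched to GENCODE M21 for coordinates on GRCm38 (mm10): 20247 of 20985 (96.5%). Promoter sequences are RefSeq's (GRCm38.p6). The table holds 26 symbols turned into dates, 11 turned into numbers, and 395 genes at 0 in every library. Symbols listed more than once (6 rows) were kept out of the gene lists.

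Genes with at least 1 FPKM in at least 3 of 18 libraries were tested with limma 3.58.1 in R 4.3.3, as limma-trend on log2(FPKM + 1) with all 18 libraries in 1 model and a mean per group. Tests were two-sided with Benjamini-Hochberg adjustment over the 14164 genes, and calls are at an adjusted p under 0.05. The members of the comparison and the 38 gene lists were chosen with earlier results of these data known. The lists hold 891 entries, and some genes are in more than 1 list. Of 872 distinct list genes, 860 were in the table and 777 were tested. Named genes are the 10 largest increases and decreases among called genes with a symbol of their own (no Gm, Rik or LOC model), no overlap and a mean of at least 1, up to 4 members of each list with the smallest p, and fixed markers. For the other comparisons they are the 5 smallest p in each direction. Exceptions are stated. The fit was tested on simulated data with known changes. The alternatives were pseudocount 0.1, no filter, quantile normalization, median centring, only the compared groups, a replicate block, library weights, and leaving out each replicate. Leaving out replicates of the control, AOS and transplant groups was added after seeing the data. Same-numbered STZ and STZ + AOS libraries deviated with correlations of −0.126, 0.0317 and 0.0373, so the numbers were not taken as pairs. Some genes are not reported here, and 1 isoform pair was left out for that reason.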

Additional observations from a re-analysis of the deposited data

Results flagged for a closer look

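The difference between STZ + AOS and STZ was itself tested against the difference between AOS and control, and the genes below were picked out because that test passed. It did so for 4984 of 14164 genes, or 35.2% (limma, adjusted p under 0.05), and for 134 of the 175 genes named in STZ + AOS against STZ. Many of the 175 were named for a small p or a large difference in STZ + AOS against STZ. That difference is part of the tested quantity, so their count is no support for it. The 5 genes with the smallest p upward were Slc6a16 (0.45) and Slc6a21 (0.38), of the family of sodium-coupled transporters, Cdkl3 (0.47), of a kinase, Ttll5 (0.36), of a tubulin-modifying enzyme of sperm tails, and Lca5l (0.35). Their values lay close together within groups: Slc6a16 was at 27.8, 29.2 and 27.7 FPKM in control, 25.8, 27.8 and 26.2 FPKM in AOS, 22.3, 21.9 and 23.1 FPKM in STZ and 29.5, 28.2 and 29.7 FPKM in STZ + AOS. The STZ libraries were the lowest of these 4 groups.

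The 5 genes with the smallest p downward were Ildr2 (−1.56), Cldn11 (−1.48), Ttyh2 (−1.38), Ormdl3 (−1.15), of a regulator of sphingolipid synthesis, and St6galnac6 (−1.11), of a sialyltransferase. Ildr2, of a tricellular junction protein family, was at 0.12, 0.2 and 0.22 FPKM in control, 0.14, 0.13 and 0.11 FPKM in AOS, 2.9, 3.23 and 2.75 FPKM in STZ and 0.36, 0.26 and 0.24 FPKM in STZ + AOS. It was close to 0 in every group but STZ. Because Ildr2 was tested only through the STZ libraries, its call is no support for a difference. With 3 libraries a group, no test for a single outlying library was made.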

How the results depend on the processing

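Higher genes in STZ + AOS against STZ numbered 1680 (4242 after quantile normalization, 6319 after median centring, 562 when only the groups compared were fitted, 1108 to 2117 with 1 replicate left out, the lowest without STZ replicate 3). Lower genes numbered 6106 (3108, 2818 and 4382 in the same order, and 5088 to 6808 with 1 replicate left out). Against control 6 genes were called (12 after median centring, 76 with only these groups, 135 with library weights, 0 to 7 with 1 replicate left out). Against AOS FMT the count of 0 became 5 with only these groups. Against control FMT 1 gene was called (2 with no filter, 33 with only these groups, 21 with library weights, 0 with a replicate block, 0 to 3 with 1 replicate left out). The interaction gave 3582 to 7235, and the protamine share difference 1.73 to 3.24 percentage points, with 1 replicate left out. With the replicate block 1649 genes were higher and 6048 lower, 8 differed from control and 4875 passed the interaction. Among named genes the sign turned for Sycp3 (−0.10 after quantile normalization, −0.058 with library weights, −0.059 to 0.090 with 1 replicate left out), Hba-a1 (−0.031, −0.55 and −0.73 to 0.76 likewise), Prdm9 (0.012 after quantile normalization), Alas2 (0.075 after quantile normalization, 0.17 after median centring), Rnase10 (0.23 and 0.18 likewise, −0.38 to 0.051 with 1 replicate left out), Hbb-bt (0.060 after median centring), Sdhb (0.10 after median centring), and, with 1 replicate left out, Spint5 (−0.040 to 0.26) and Hbb-bs (−1.27 to 0.0095). Of these, Prdm9 and Sdhb were called on the deposited values. The cause was not tested. Where 1 library of a group was left out and others kept 3, all groups shared the estimate of spread. Depth could not be given in reads, so no counting error was computed, and genes below 1 FPKM were mostly not tested.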

Other observations

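By chromosome, a property no list used and chosen after the values were seen, the X chromosome stood lowest in STZ + AOS against STZ. Of 634 tested X-linked genes 317 (50%) were lower and 49 higher, with a median log2 difference of −0.34. On the autosomes 37% to 47.8% of genes were lower and medians ran from −0.20 to −0.10. Of 75 tested genes of the Y chromosome 8 were lower and 7 higher (median 0.16). X-linked genes are silenced in spermatocytes and remain mostly low in spermatids, as general background. No test was made of the difference between chromosomes.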
